A study of Zea mays with 6 samples.

Results

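Of the 1132 NAC24 peaks in the deposited list, 232 (20.5%) stood alone in the maize genome and lay in or beside an annotated gene. Isolated here means that no other peak was listed within 10000 bp on the same sequence, and beside means that the nearer listed gene was at most 1000 bp from the edge of the peak. The peaks were chosen by these measured positions and distances, which are therefore given below as descriptions. The 232 peaks made up 39.1% of the 593 isolated peaks (95% interval 35.2 to 43.2). A gene was overlapped by 141 of them, and the other 91 lay 2 to 1000 bp from one.

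The peaks come from DAP-seq, in which a protein made in a cell-free extract is held on beads and offered sheared genomic DNA, after which the bound fraction is read by sequencing. NAC24 fused to a HALO tag was used in 3 libraries, and GFP fused to the same tag served as the control in 3 libraries. Both proteins were offered DNA from primary roots of the untreated inbred line B73, whose seeds had germinated in darkness at 28 °C over 2 days, and per the series' design text each protein saw DNA of the same separate roots. The proteins came from a wheat germ extract, 1 µg of library was offered for 1 h and washed 6 times, and the eluted DNA went through 20 cycles of PCR before paired reads of 150 bp.

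NAC proteins are a large family of plant transcription factors that share a DNA-binding NAC domain, and members of the family act in meristem boundaries, secondary wall formation, senescence and stress responses. They act by binding DNA close to the genes that they switch on or off, which is why peaks in or next to genes are usually the first place to look for targets. DAP-seq uses naked DNA, so it reads what the protein can bind without nucleosomes or partner proteins and says nothing of whether the gene responds in the root. Much of the maize genome consists of transposable elements between genes, and the submitters' title names aquaporin regulation as the starting point of the study. Aquaporins are the membrane channels through which water crosses cell membranes.

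The list gives each peak a single peak shape score with its p-value, both the authors', and 0 columns of values per library. Read depth is therefore unknown, no value has a replicate error, and the GFP-HALO level at a peak is not analysed here. Whether the list rests on all 3 NAC24-HALO libraries or on a single one is not stated. Higher scores go with smaller p-values, and strong and weak below refer to this score alone, since no read enrichment is given. The p-values, for which no adjustment is named, end just under 0.05. Intervals below are exact 95% intervals that treat peaks as independent and cover counting error only. Differences between classes of peaks were not tested, because peaks of a single list are not replicates.

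The highest scores of this class belonged to peaks beside genes, though 7 of the 20 highest belonged to peaks that overlapped one. The highest score, 13.9 (p = 2.15e-44 in the authors' deposited table), belonged to a peak of 217 bp on chromosome 1 (64840558 to 64840774), 801 bp from Zm00001d029285 on its higher-coordinate side. Its lower-coordinate neighbour was 105408 bp away and the nearest other peak 362815 bp. Also on chromosome 1, Zm00001d034189 had a peak 679 bp away, at 286082897 to 286083111, whose score was 13.1. These scores were the 5th and 7th highest among all 1132 peaks.

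The third and the fourth highest scores also belonged to peaks beside a gene. A peak on chromosome 3 (186400696 to 186400913) scored 10.2 and lay 319 bp from the gene on its higher-coordinate side. A peak on chromosome 2 (19852593 to 19852813) scored 10.1 with its edge 4 bp from a gene, so it all but touched the annotated unit. Below the strongest peak that overlapped a gene, scores of 7.39 and 7.18 belonged to peaks of chromosome 1. They began at 263440674 and 22019174, at 920 and 587 bp from a gene. The first of them lay in a short gap, since the gene on its other side was 2638 bp away. The remaining peaks beside a gene among the 15 highest scores of the class were on chromosomes 1, 5, 7 and 8. On chromosome 8, the peak at 175904499 to 175904709 scored 6.31 at 653 bp from a gene, and the peak starting at 162132412 scored 5.61 at 691 bp. The peak starting at 298415321 of chromosome 1 scored 5.62 at 393 bp from a gene, and the one starting at 163081746 of chromosome 7 scored 5.62 at 424 bp. On chromosome 5, the peak starting at 27756520 scored 5.57 with a gene 115 bp away.

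Among peaks overlapping a gene, the highest score was 8.77, for a peak on chromosome 4 (5329471 to 5329689) within or across Zm00001d048775. A peak on chromosome 7 (6434846 to 6435066) scored 7.10 and overlapped a pair of genes at once. On chromosome 8, the peak at 154374283 to 154374499 scored 6.12 inside a gene whose listed neighbour was 13649 bp away. The peak at 176843 to 177050 of chromosome 2, close to the start of that chromosome, scored 5.56. All other peaks that overlapped a gene scored 5.36 or less.

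Among the 20 highest scores of the class, 5.23 to 13.9, 13 peaks lay beside a gene and 7 overlapped one. These 20 peaks were on 7 chromosomes, with 6 on chromosome 1 and 5 on chromosome 8. They had widths of 208 to 227 bp and a centre at most 5 bp from the midpoint. The score is itself one of peak shape, so this is a description. A score over 5 was reached by 7 of 141 overlapping peaks (4.96%, 2.02 to 9.96) and by 13 of 91 beside a gene (14.3%, 7.83 to 23.2). The intervals overlap. In the whole class, 20 of 232 peaks scored over 5 (8.62%, 5.35 to 13.0), against a background of 9.36% in the whole list.

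**Figure D1:**
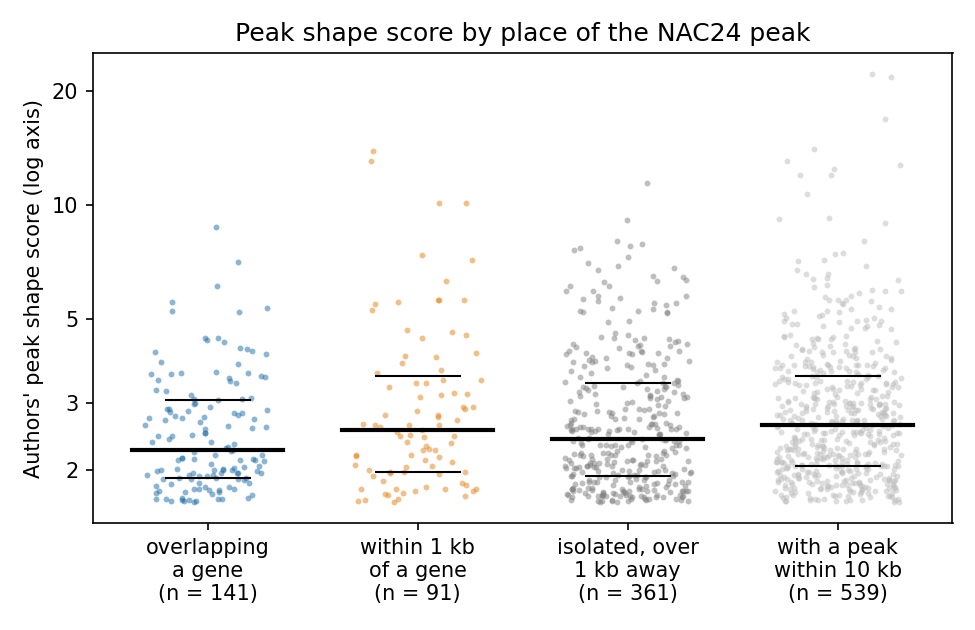
Authors' peak shape score on a log axis for each of the 1132 peaks (points, spread sideways for view), by place, with the median as a thick line and the quartiles as thin lines. Medians were 2.26 for peaks overlapping a gene, 2.55 for peaks within 1 kb, 2.41 for isolated peaks farther away and 2.63 for peaks with a neighbour, and the 4 clouds overlap over most of their range.

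Low scores were common in the class, much as in the whole list, where the median was 2.51 and the quartiles 1.97 and 3.43. A score of 2 or less was given to 76 of the 232 peaks, a score over 2 and up to 3 to 87, and a score over 3 and up to 5 to 49. The lowest scores were 1.65 for peaks starting at 303357007 on chromosome 1, 27317293 on chromosome 7 and 218831077 on chromosome 3. Of the 3 weakest peaks, the first 2 overlapped a gene and the last lay 604 bp from one, so weak peaks occurred in both places.

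The median score was 2.39 (interval 2.19 to 2.59, quartiles 1.94 and 3.24), against 2.41 (2.28 to 2.56) for the 361 isolated peaks more than 1 kb from a gene. An authors' p of at most 0.001 was found for 65 of the 232 peaks (28.0%, 22.3 to 34.3), against a background of 31.8% in the whole list and 31.3% of the isolated peaks far from genes. Both values of the class thus lay close to those of the other isolated peaks, with intervals that contain them.

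Within the class, the median score was 2.26 (2.11 to 2.56) for peaks overlapping a gene and 2.55 (2.26 to 2.87) for peaks beside one. A p of at most 0.001 was held by 33 of 141 overlapping peaks (23.4%, 16.7 to 31.3) and by 32 of 91 beside a gene (35.2%, 25.4 to 45.9). Both values were lower for overlapping peaks, with intervals that overlap.

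Median scores in bins of distance to the gene took no steady course, and their intervals overlap. Of the 91 peaks beside a gene, 13 lay within 100 bp, 26 within 250 bp (28.6%, 19.6 to 39.0) and 49 within 500 bp (53.8%, 43.1 to 64.4). The median score was 2.78 at 1 to 100 bp (n = 13), 2.05 at 101 to 250 bp (n = 13), 2.63 at 251 to 500 bp (n = 23), 3.02 at 501 to 750 bp (n = 24) and 2.40 at 751 to 1000 bp (n = 18). The lowest and highest of these medians had intervals of 1.78 to 3.19 and 2.12 to 4.07. Across the 91 peaks, Spearman's rho between score and distance was 0.095, a description of peaks of a single list.

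**Figure D2:**
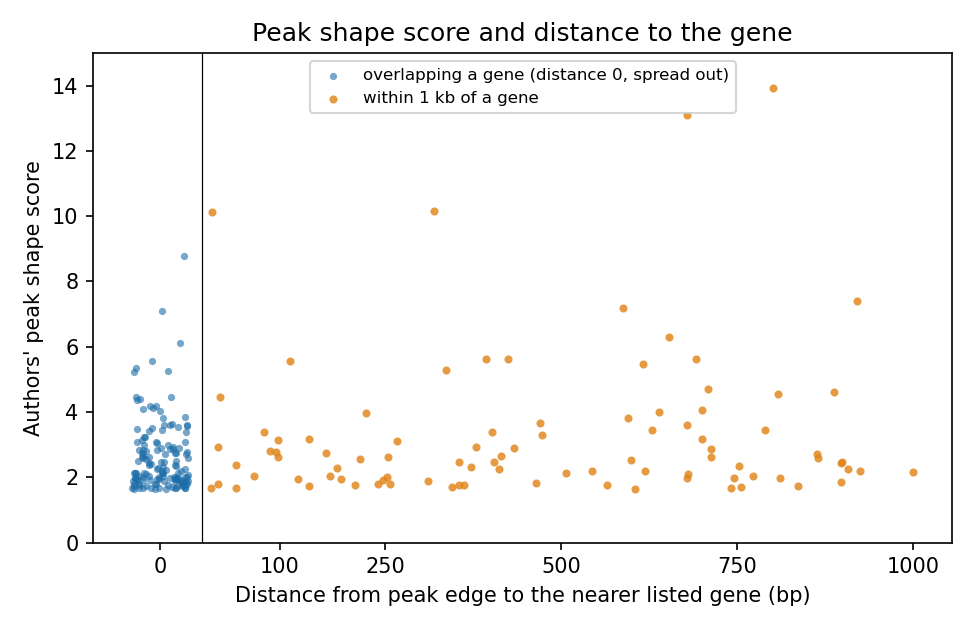
Authors' peak shape score against the distance from the edge of the peak to the nearer listed gene in bp, for the 141 peaks overlapping a gene (distance 0, spread sideways left of the line) and the 91 peaks within 1 kb. Scores of 10 or more appear at 4, 319, 679 and 801 bp, and low scores at every distance.

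The peaks closest to a gene without touching it had unlike scores. The nearest lay 2 bp from a gene on chromosome 7 (158115787 to 158115994) and scored 1.67, near the weak end of the list, while the peak at 4 bp on chromosome 2 scored 10.1. Peaks 12 bp from a gene scored 2.94 on chromosome 3 (14517827 to 14518047) and 1.80 on chromosome 9 (123999251 to 123999465). The peak 15 bp from a gene near the end of chromosome 10 (149623019 to 149623227) scored 4.46, the highest score of the class on that chromosome.

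Just inside the limit of 1000 bp, peaks at 1000, 924 and 920 bp from a gene scored 2.16, 2.18 and 7.39. Just outside it, isolated peaks at 1005, 1024 and 1031 bp scored 4.93, 3.22 and 2.02. The isolation limit fell into a wide empty stretch. The least isolated peaks of the class had their nearest peak at 20624, 23372 and 26035 bp, while the most isolated of the excluded peaks in or beside genes had it at 7513 bp, and a pair on chromosome 1 at 5866 bp. Scores were 1.71, 13.1 and 6.12 on the inner side and 1.79, 2.65 and 2.14 on the outer side.

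Beside a gene, the nearer gene was on the lower-coordinate side of 41 of 91 peaks (45.1%, 34.6 to 55.8) and on the higher-coordinate side of the other 50. Median scores were 2.44 (2.09 to 3.18) and 2.64 (2.26 to 3.11). The table does not give the strand of a gene, so whether a peak lies before its start or after its end is not known here, and neither is the part of a gene, exon, intron or untranslated region, that a peak overlaps.

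Measured from gene to gene, the gaps that held the peaks beside a gene had a median length of 31086 bp (16566 to 52718, n = 91), and 38 of 91 (41.8%, 31.5 to 52.6) were under 20 kb. Gap length is the sum of the distances that chose the peaks and the peak width, so it is given as a description and not set against other classes. The peak at 165172871 to 165173090 on chromosome 6 sat in a gap of 987 bp, and the one at 33004975 to 33005199 on chromosome 8 at the border of a gap of 1821104 bp, 639 bp from one gene and 1820240 bp from the other.

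Some peaks lay between genes that are close neighbours. Of the 91 peaks beside a gene, 7 had a gene within 1 kb on both sides (7.69%, 3.15 to 15.2). The strongest of them, on chromosome 5 (9537332 to 9537576), scored 3.38 with genes at 402 and 523 bp. The others scored 1.76 to 2.94 and lay on chromosomes 1, 3, 6 and 7, with 3 of them on chromosome 6. The median of these peaks was 2.52, close to the 2.55 of all peaks beside a gene, and none of them was among the 20 highest scores of the class.

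Of the 141 peaks that overlapped a gene, 4 overlapped a gene on either side at once (2.84%, 0.778 to 7.10). They were the chromosome 7 peak that scored 7.10, the last peak of chromosome 3 (235432892 to 235433100) with 5.23, a peak starting at 45341152 of chromosome 2 with 1.92, and one starting at 168636810 of chromosome 3 with 1.91. The last of these was the most isolated peak of the class, with the nearest other peak 15.2 Mb away. A further 4 peaks overlapped one gene with another at 68 to 986 bp, and scored 1.68 to 2.56.

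The listed gene on the other side of an overlapping peak was a median of 24036 bp away (11339 to 35931, n = 140), and within 10 kb for 55 of 140 (39.3%, 31.1 to 47.9). Counting all 231 peaks of the class with a gene listed on both sides, the 87 with the second gene within 10 kb had a median score of 2.51 (2.13 to 2.82), and the 144 with it farther away one of 2.35 (2.14 to 2.62). The intervals of these medians overlap. The 5 highest scores, 8.77 to 13.9, had a second gene more than 10 kb away. The highest score with a second gene within 10 kb was 7.39, and scores over 5 occurred on both sides of this limit.

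The 232 peaks touched or flanked 247 genes, 145 by overlap and 102 at up to 1 kb without overlap. None of these genes had more than 1 peak of the class, and none lay within 1 kb of a peak outside it. Peaks with another peak within 10000 bp had been left out, so this follows largely from the choice. At any distance, 9 of them were also listed as the neighbour of a further peak.

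Only 1 of the 247 genes carried a symbol in the table. CFM3, whose maize protein with RNA-binding CRM domains takes part in the splicing of chloroplast introns, was overlapped by a peak of 218 bp on chromosome 2 (235053994 to 235054211). Its score was 3.46 (p = 2.74e-04 in the authors' deposited table), the 50th highest score of the class and the 276th of the list. The gene on the other side of this peak lay 1797 bp away and the nearest other peak 1106701 bp away. The sequence of the peak was not used here.

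The second symbol near the class was PCNA, the sliding clamp that holds DNA polymerase on its template. It was not overlapped. On chromosome 5, a weak peak (220302595 to 220302812) that scored 1.93 overlapped the gene on its higher-coordinate side and had PCNA 3380 bp away on the lower. The symbols were set against 6 lists, for aquaporins, NAC factors, root architecture, cell wall, other transcription factors and organelle splicing. CFM3, the only symbol to match, belongs to the organelle splicing list, which was drawn up with earlier results known. With no further symbol at these genes the other lists could match nothing, and 0 aquaporins were named. The other 246 genes are identifiers that the files do not pair with names, so these counts set no limit on aquaporins or other targets among them.

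By chromosome, the class ran from 14 to 38 peaks. Chromosome 5 held the most, 38 peaks with 23 overlapping a gene, and chromosome 1, the longest, held 37. Per 100 Mb up to the last peak, this was 17.0 on chromosome 5 and 12.1 on chromosome 1. Chromosome 2 held 14, or 5.74 per 100 Mb, the lowest density of the 10 chromosomes.

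On chromosome 5, peaks in or beside genes were 38 of 71 isolated peaks (53.5%, 41.3 to 65.5), against 192 of 518 (37.1%, 32.9 to 41.4) on the other 9 chromosomes. Chromosome 5 was singled out after its values were seen, and the 2 intervals just touch. On chromosome 2 they were 14 of 49 (28.6%, 16.6 to 43.3) and on chromosome 10 they were 18 of 37 (48.6%, 31.9 to 65.6). The number of genes on each chromosome was not available for comparison.

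**Figure D3:**
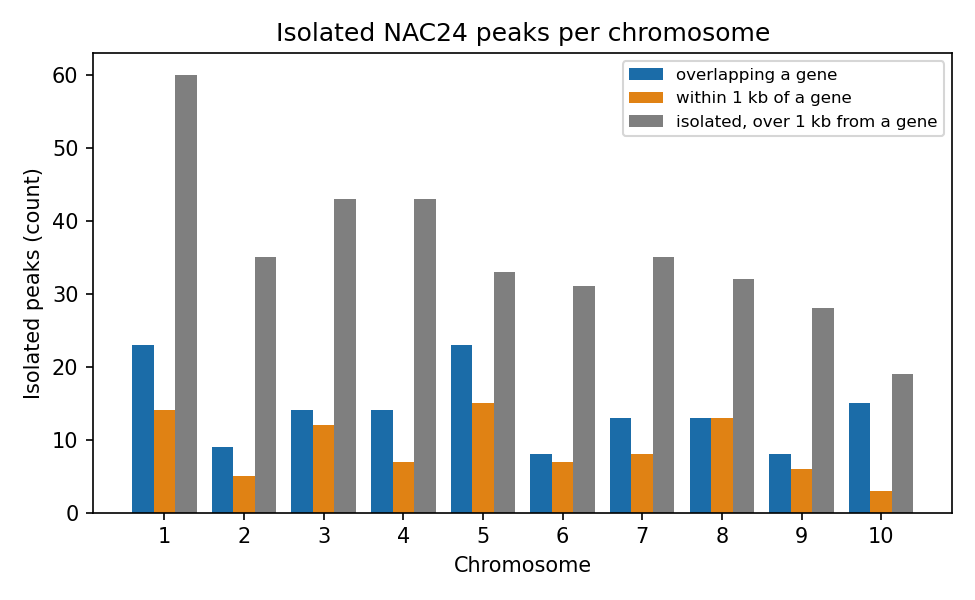
Isolated peaks per chromosome (count), split into peaks overlapping a gene, peaks within 1 kb of a gene and isolated peaks farther from genes. Chromosome 5 has 23 and 15 peaks in the first 2 classes against 33 far from genes, while chromosome 2 has 9 and 5 against 35.

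Chromosome 8 had the highest median of the class, 3.14 (2.12 to 4.0, n = 26), with 14 of its 26 peaks at a p of at most 0.001 (53.8%, 33.4 to 73.4, against the background of 31.8%). Chromosome 7 had the lowest, 1.99 (1.81 to 2.89, n = 21). The intervals of these extremes overlap, and they were picked out of 10 chromosomes. On chromosomes 6, 9 and 10 the highest scores of the class were 4.45, 4.54 and 4.46.

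Peaks of the class lay toward the chromosome ends more often than isolated peaks far from genes. Within the outer 20% of each end, which add up to 40% of the span, lay 137 of 230 peaks (59.6%, 52.9 to 66.0), against 168 of 359 isolated peaks far from genes (46.8%, 41.5 to 52.1). In the outermost 5% lay 58 of 230 (25.2%, 19.7 to 31.3) and 46 of 359 (12.8%, 9.54 to 16.7). The shares were alike for overlapping peaks (57.9% in the outermost 20%) and peaks beside a gene (62.2%). These differences were not tested, and gene density along the chromosomes was not measured here. The end of the last peak stood for the chromosome length. The last peak of 3 chromosomes was itself in the class.

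**Figure D4:**
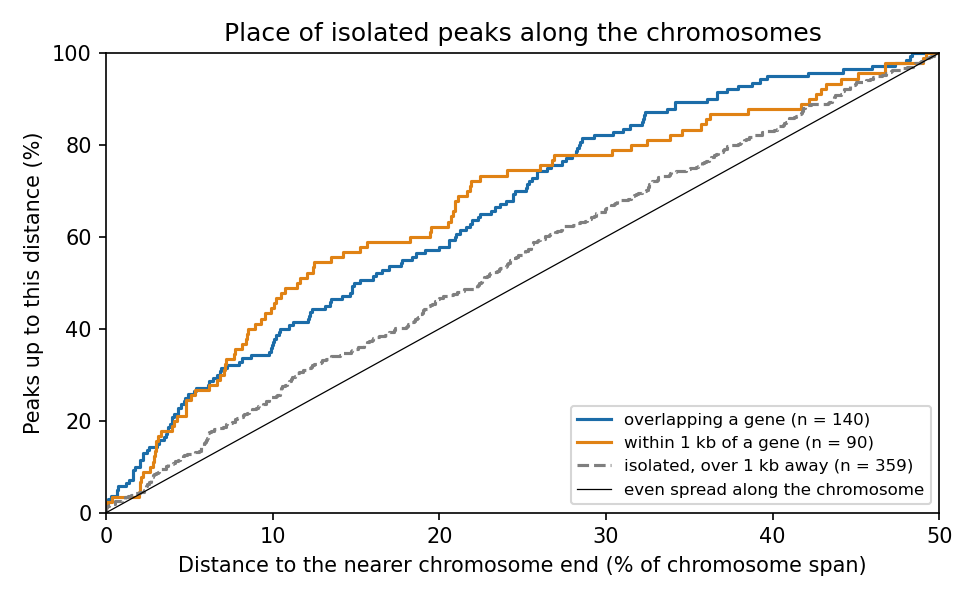
Cumulative share of isolated peaks (%) against the distance to the nearer chromosome end (% of the span up to the last peak), for peaks overlapping a gene, peaks within 1 kb of one and isolated peaks farther away, with a diagonal for an even spread. At 20% of the span the curves stand at 57.9%, 62.2% and 46.8%, where an even spread gives 40%.

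The median score was 2.45 (2.19 to 2.75) for the 137 peaks in the outermost 20% and 2.37 (2.12 to 2.63) for the 93 in the inner part. The intervals overlap. Of the 20 highest scores of the class, 17 lay in the outermost 20%, against 137 of 230 in the class as a whole. These 20 peaks were thus mostly near the ends although the medians were alike. This was not tested. The peaks with the highest and the third highest score, 13.9 and 10.2, were not among the 17. They lay at 21.1% and 20.8% of the span from the end.

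Along the chromosomes the peaks were scattered. Of 423 windows of 5 Mb, 164 held a peak of the class, 117 of them a single one. Only 3 windows held 4 peaks and none held more. These were at 10 to 15 Mb and 215 to 220 Mb of chromosome 5 and at 165 to 170 Mb of chromosome 6, where all 4 lay beside genes. Scores in these windows ran from 1.66 to 4.07, so the fullest windows held none of the strongest peaks. The nearest other peak of any kind was a median of 0.905 Mb away (0.630 to 1.10, n = 230), and 207 of 232 peaks had none within 100 kb. On unplaced contigs lay 2 peaks of the class, each the sole peak of its contig, with scores of 1.95 and 1.74.

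Width and centre were not part of the choice and were more uniform in the class than in the rest of the list. The choice did leave out peaks with a neighbour, which had their nearest other peak at a median of 421 bp. The comparison with them is thus not separate from the choice, and whether so close a neighbour alters form was not tested. The median width was 215 bp (214 to 216, SD 12.6) with quartiles of 211 and 221 bp, against 217 bp (216 to 219, SD 22.1) for isolated peaks far from genes and 222 bp (220 to 223, SD 33.2) for peaks with a neighbour. The medians lay within 7 bp of each other, while the SDs differed more. This was not tested.

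The classes had different shares of wide and narrow peaks, a difference that was not tested. A width of 250 bp or more was found in 6 of 232 peaks (2.59%, 0.955 to 5.54), in 32 of 361 isolated peaks far from genes (8.86%, 6.14 to 12.3) and in 92 of 539 peaks with a neighbour (17.1%, 14.0 to 20.5). A width under 200 bp was found in 3 of 232 (1.29%, 0.267 to 3.73), 9 of 361 (2.49%, 1.15 to 4.68) and 100 of 539 (18.6%, 15.4 to 22.1) peaks of the same classes. Between 200 and 230 bp lay 89.2% (84.5 to 92.9), 77.3% (72.6 to 81.5) and 49.2% (44.9 to 53.5) of these classes. Overlapping peaks and peaks beside a gene were alike, with 3 of 141 and 3 of 91 at 250 bp or more.

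**Figure D5:**
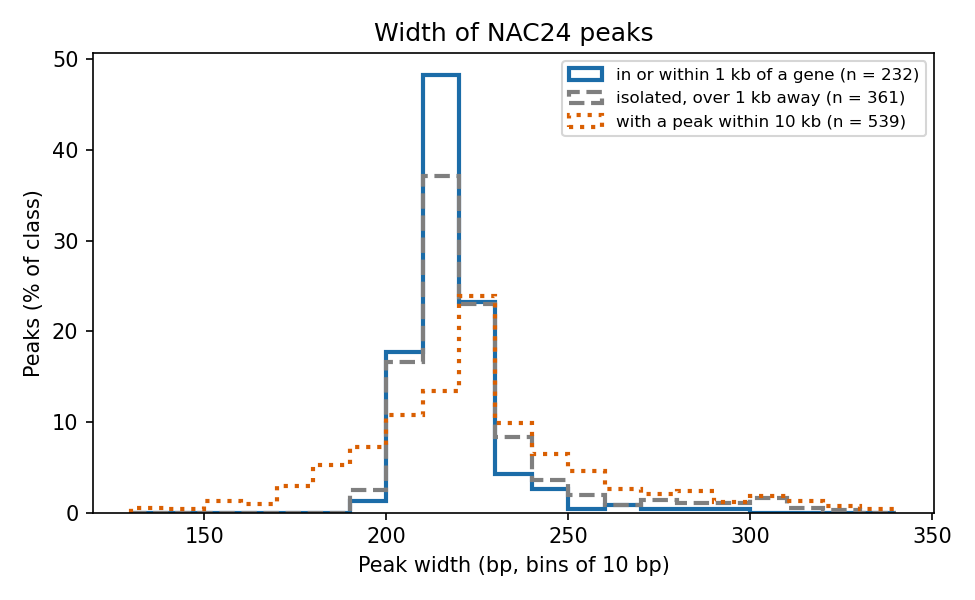
Peak width in bins of 10 bp, as the percentage of peaks in each class, for the 232 isolated peaks in or within 1 kb of a gene, the 361 isolated peaks farther away and the 539 peaks with a neighbour. The first class is concentrated between 200 and 230 bp, and the last reaches from 132 to 330 bp.

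Another description of form, not separate from width, is the centre that the authors list for a peak. It lay within 5 bp of the midpoint in 192 of 232 peaks (82.8%, 77.3 to 87.4), against 250 of 361 isolated peaks far from genes (69.3%, 64.2 to 74.0) and 220 of 539 with a neighbour (40.8%, 36.6 to 45.1). It was more than 20 bp off in 6 of the 232, and these were the same 6 peaks as those of 250 bp or more. They were 259 to 293 bp wide, 22 to 36 bp off centre and scored 2.48 to 3.43. The widest, at 48267849 to 48268141 on chromosome 10, overlapped a gene, and the narrowest peak of the class, 194 bp at 211794128 on chromosome 1, did so as well. Across the 232 peaks Spearman's rho between score and width was 0.170, and none of the 20 highest scores was wider than 227 bp.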

How the data were processed

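DAP-seq libraries of NAC24-HALO and GFP-HALO (3 each) were made from B73 primary root DNA. Positions refer to B73 RefGen v4, per the submitters' processing notes. The peak caller, its filters, any pooling and how GFP-HALO entered the calling are not given in the sources used here. Per the file headers, the deposited table gives a peak shape score, a p-value, a centre, a width and the gene on each side with its distance. The deposited p-value equalled the upper normal tail at the deposited score within 3.40e-16, so the pair is a single measure. The gene columns were read as the lower- and higher-coordinate side, as identifiers ran upward from the first column to the second in 229 of 229 peaks of the class that have both.

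Peaks were sorted by position and chosen by the distances stated in the report, in Python 3.11.15 with pandas 2.3.3 and numpy 2.4.6. The selection was tested on simulated peaks. Shares carry Clopper-Pearson intervals and medians order-statistic intervals (scipy 1.17.1). The peaks and symbol lists were chosen with earlier results of these data known. Peaks described singly were the 15 highest and 3 lowest scores, those nearest a gene or either limit, those with genes on both sides, those of extreme width and those at genes with symbols; others were picked after their values were seen. Identifiers were looked up in the RefSeq gene table of Zm-B73-REFERENCE-NAM-5.0, of another build and used for names only, where 1 of 247 genes was found. All 232 peaks were found in the deposited interval file, 228 with identical edges and 4 shifted by 1 bp. With no genome of this build, sequences and motifs were not analysed here.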

Additional observations from a re-analysis of the deposited data

How the results depend on the processing

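Of 51 alternatives over 12 results, 39 stayed within the interval of the reported value, or within 1.5 times for the count, and 12 moved. A change of direction was counted for 0, but counts, medians and shares of a class mostly have no direction to change. Isolation distances of 5 and 20 kb, chromosomes alone and the edges of the interval file moved none of the results they were tried on. The 20 kb distance could move none, since the least isolated peak of the class had its nearest peak at 20624 bp and the same 232 peaks qualified. With the authors' p at most 0.01, 126 peaks qualified when isolation was judged among such peaks and 121 when judged among all. The median score was then 3.17 and 3.18 and the share at p of at most 0.001 was 53.2% and 53.7%, since weak peaks are left out, and the median width was 217 bp in the first. The share overlapping a gene was 74.2% with a distance of up to 500 bp and 48.0% with up to 2000 bp, since these limits admit fewer or more peaks beside a gene. From the peak centre, 18.7% of peaks beside a gene lay within 250 bp, since the centre is farther away than the edge. The outermost 10% and 30% held 40.0% and 80.4% of the class, since they span less or more of the chromosome. No paired analysis was possible because single libraries have no values in the list, so replicates could not be left out either. Depth per library is unknown, and what it limits was not measured.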

Other observations

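A centre far from the midpoint and a large width went together outside the class as well. Of the 361 isolated peaks far from genes, 32 were 250 bp or wider and 26 had a centre more than 20 bp off, with 25 in both. Of the 539 peaks with a neighbour these counts were 92, 108 and 79. Chromosome 9, which held 144 peaks in the list, held 14 of the class, and chromosome 10, with 45 peaks in the list, held 18. Isolated peaks alone numbered 42 on chromosome 9 and 37 on chromosome 10. The class made up 33.3% (19.6 to 49.5) and 48.6% (31.9 to 65.6) of them, with intervals that overlap.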
